A study of Mus musculus with 47 samples.

Results

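SLC25 carriers are membrane proteins, most of them in the inner mitochondrial membrane, that move nucleotides, phosphate, organic acids, amino acids, cofactors and metals in and out of the organelle. They were taken as all genes whose symbol is Slc25a followed by a number, which gave 47 members among the 24391 genes of the count tables. Their transcripts were measured by RNA sequencing in brown adipose tissue (BAT), white adipose tissue (WAT) and gastrocnemius muscle (GN) of C57Bl6 mice, all collected on day 21. NTB mice carried no tumour, and the labels name neither an antibody nor a dose for them. IgG1 mice carried an HT1080 tumour, from a human fibrosarcoma line, and were given a control IgG1 antibody, while 3P10 mice carried the same tumour and were given 3P10, which blocks GFRAL, the hindbrain receptor of the circulating factor GDF15. Antibody doses were 3 mg/kg each week, starting with inoculation. IgG1 against NTB therefore joins the tumour and the control antibody, and 3P10 against IgG1 compares the antibodies within mice that carry a tumour. BAT gave 6 NTB, 5 IgG1 and 6 3P10 libraries, and WAT and GN gave 5 of each group. Because the labels do not tie samples of a group to separate animals, p-values measure the spread between these samples. The labels do not give the immune status of these hosts.

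The inner membrane is all but closed to charged metabolites, and a typical SLC25 carrier opens it to a few substrates, usually by exchanging one for another. Fat and muscle call on different carriers: fat exports citrate for lipid synthesis, brown fat burns fatty acids that enter as acylcarnitines, and muscle relies on ADP and ATP exchange and on the malate-aspartate shuttle, which brings reducing power from the cytosol into the mitochondrion. Several members respond to calcium, and others supply the iron, glutathione and cofactors that mitochondrial enzymes use.

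Levels are counts per M counts (CPM, with M for 1e6) after TMM scaling within a tissue. A difference is a log2 fold change from edgeR's quasi-likelihood test with its standard error (SE), called where the p adjusted by Benjamini-Hochberg across every gene of the fit was below 0.05. Brown fat was read least deeply, with library totals of 0.799 to 2.46 M, whereas white fat libraries reached 18.6 to 80.7 M and muscle libraries 24.8 to 33.5 M. By counting error alone, a member with no count may lie anywhere below 3 counts, a floor of 1.22 to 3.755 CPM for brown fat, 0.0372 to 0.161 CPM for white fat and 0.0896 to 0.121 CPM for muscle. Of the 47 members, 30 passed the low-count filter in BAT, 40 did in WAT, 39 did in GN, and 30 did in all of these tissues. In none of them was it passed by Slc25a2, Slc25a18, Slc25a21, Slc25a31, Slc25a41, Slc25a43 and Slc25a54, 7 members in all. Defining markers fitted the labelled tissues, with skeletal muscle markers summing to 213300 to 426400 CPM in GN, and adipocyte markers to 24520 to 35110 CPM in WAT and 9460 to 17310 CPM in BAT. White fat IgG1 replicates 2 and 4 stood apart, holding 3284 and 3141 CPM of Ucp1, the uncoupling protein of thermogenic fat, where the remaining 13 white fat libraries held 37.1 to 711 CPM. Replicate 4 was also the deepest white fat library, at 80.66 M, while replicate 2 held 25.13 M. Both carry a library number of 14 or higher in their titles, as do white fat NTB replicate 3 and 3P10 replicate 2, which held 92.97 and 119.9 CPM of Ucp1. The 4 muscle libraries with such numbers (NTB replicate 3, IgG1 replicates 2 and 4, 3P10 replicate 2) also stood apart. They lay below all other muscle libraries for 5 of 39 members and 11.9% of all genes, and above them for 3 members and 13.2%. Brown fat library numbers run through one group after another, so order and group cannot be told apart there.

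The promoters of 3 members are shown. Slc25a28, which imports iron, was called between IgG1 and NTB in both white fat and muscle. Slc25a33 had the largest called difference of that comparison in white fat, and Slc25a25 spread widely among muscle libraries. Whether these promoters have a part in those values was not tested. Each window runs from 250 bases before to 50 bases after an annotated start, 5′ to 3′ on the gene's strand, from RefSeq on GRCm38.p6, whereas the submitters aligned to mm9. Capitals mark a match to a searched motif.
Slc25a28, chr19:43674832-43675131, minus strand: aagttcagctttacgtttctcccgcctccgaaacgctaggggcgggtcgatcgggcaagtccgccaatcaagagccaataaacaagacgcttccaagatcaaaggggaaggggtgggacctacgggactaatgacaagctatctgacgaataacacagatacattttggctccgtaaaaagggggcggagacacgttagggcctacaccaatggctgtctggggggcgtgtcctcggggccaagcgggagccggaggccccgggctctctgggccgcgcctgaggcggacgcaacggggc
Slc25a33, chr4:149774218-149774517, minus strand: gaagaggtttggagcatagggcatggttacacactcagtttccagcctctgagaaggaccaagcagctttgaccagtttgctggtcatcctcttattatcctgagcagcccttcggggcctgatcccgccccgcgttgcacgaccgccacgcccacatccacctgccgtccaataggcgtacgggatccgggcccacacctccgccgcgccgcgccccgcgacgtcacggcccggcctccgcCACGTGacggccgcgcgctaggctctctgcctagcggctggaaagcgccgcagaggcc
Slc25a25, chr2:32424017-32424316, minus strand: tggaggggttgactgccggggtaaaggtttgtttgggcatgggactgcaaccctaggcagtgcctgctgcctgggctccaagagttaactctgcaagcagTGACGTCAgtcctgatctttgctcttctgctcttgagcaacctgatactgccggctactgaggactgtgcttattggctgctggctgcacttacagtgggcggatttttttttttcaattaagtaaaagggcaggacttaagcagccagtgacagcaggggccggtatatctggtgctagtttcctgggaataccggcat
Of 47 members, 36 had a RefSeq promoter, giving 46 windows, and 7 motifs were searched on both strands. The E-box CACGTG, in capitals in Slc25a33, was found in 8 of the 46 windows, from 7 members, and in 7.15% of all 32851 windows. The cyclic AMP response element TGACGTCA, in capitals in 1 of the 3 windows of Slc25a25, was found in windows of 2 members, the other being Slc25a36, and in 1.79% of all windows. Only the Slc25a25 window with this match is printed, and its other windows held no searched motif. CCGGAAGT, an ETS site, was found in 1 member window, that of Slc25a20, and in 3.89% of all windows. The other 4 motifs were found in 0 member windows. They were the ERR site TCAAGGTCA (0.423% of all windows), the NRF1 site, GCGCA followed by TGCGC (0.971%), the PPAR/RXR site, AGGTCA, then 1 base, then AGGTCA (0.0396%), and the glucocorticoid receptor site, GNACA, then 3 bases, then TGTNC (0.475%). A match is a string of letters in a short window and was not tested as a binding site.

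White fat and muscle of tumour-free mice differed in the level of many carriers, in a share near that of all genes. Both share a library kit and a table, so they were tested against each other in a joint fit. Log2 differences between them use TMM factors over both tissues together. The CPM printed beside these differences were scaled within each tissue, so the differences do not follow from those CPM. In the joint fit 28 of 41 members (68.3%) were called, against 71.7% of 14898 genes. Of the members 16 were higher in white fat (38.7% of all genes) and 12 lower (33% of all genes). On library totals without TMM factors the median over all genes moved by 0.96 on the log2 scale, and 28 members were called higher and 5 lower. Of the 28 members called with TMM factors, 21 had the same direction and a call on library totals, Slc25a29 and Slc25a34 had the same direction and no call, and 5 changed direction, namely Slc25a15, Slc25a26, Slc25a28, Slc25a33 and Slc25a37.

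Carriers higher in white fat included the citrate carrier Slc25a1 and the dicarboxylate carrier Slc25a10. Slc25a11, which carries the dicarboxylates 2-oxoglutarate and malate, was higher in muscle. Slc25a1, the citrate carrier whose export feeds fatty acid synthesis, stood at 777, 1241, 1076, 1172 and 1070 CPM in the NTB white fat libraries and at 10.2, 5.27, 18.4, 8.14 and 23.04 CPM in the NTB muscle libraries. The tissues do not overlap, and the log2 difference, white fat minus muscle, was 5.40 (SE 0.61, adjusted p = 7.27e-09). Slc25a10, the dicarboxylate carrier that exchanges malate or succinate for phosphate, ranged over 202 to 353 CPM in white fat but only 3.39 to 6.42 CPM in muscle, a difference of 5.16 (SE 0.39, adjusted p = 1.71e-12). Slc25a48 differed by 5.07 (SE 0.91, adjusted p = 1.49e-05) at a low level, 3.49 to 9.14 CPM in white fat and at most 0.309 CPM in muscle. Slc25a35 differed by 3.37 (SE 0.20), the widespread ADP/ATP carrier Slc25a5 by 2.36 (SE 0.26), the calcium-regulated ATP-Mg/phosphate carrier Slc25a23 by 2.24 (SE 0.14), the glutamate carrier Slc25a22 by 1.998 (SE 0.19) and the peroxisomal cofactor carrier Slc25a17 by 1.85 (SE 0.24). Each of these 8 was called on library totals in the same direction. The branched-chain amino acid carrier Slc25a44 was also higher in white fat, by 0.80 (SE 0.15).

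Higher in muscle were the ADP/ATP carrier of excitable tissue and carriers of the malate-aspartate shuttle. Slc25a12, the calcium-activated aspartate/glutamate carrier, stood at 498, 488, 258, 472 and 550.5 CPM in NTB muscle and at 12.7, 15.4, 19.9, 8.999 and 12.9 CPM in NTB white fat. Even the lowest muscle library lay far above white fat, with a difference of -5.97 (SE 0.27, adjusted p = 1.83e-17). Its paralog Slc25a13, the main aspartate/glutamate carrier of liver, ranged over 0.334 to 1.19 CPM in muscle and 0.543 to 1.21 CPM in white fat and was not called, at -0.72 (SE 0.42, adjusted p = 0.125) and at 0.21 on library totals. On the joint scale its NTB means were 1.064 CPM in muscle and 0.6446 CPM in white fat. Slc25a4, the ADP/ATP carrier of heart and skeletal muscle, stood at 3624, 3272, 5441, 3073 and 3106 CPM in muscle and 299.6 to 369 CPM in white fat, a difference of -4.38 (SE 0.22, adjusted p = 3.16e-16). Slc25a11, the 2-oxoglutarate/malate carrier of the shuttle, ranged over 297 to 336 CPM in muscle and 104 to 127 CPM in white fat (-2.40, SE 0.17). The uncoupling-protein-like Slc25a27 differed by -2.67 (SE 0.27), Slc25a34 by -2.20 (SE 0.62), the phosphate and copper carrier Slc25a3 by -1.56 (SE 0.21) and the basic amino acid carrier Slc25a29 by -1.27 (SE 0.32). Slc25a33, which carries pyrimidine nucleotides, gave -1.01 (SE 0.24) and, on library totals, 0.003.

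**Figure D1:**
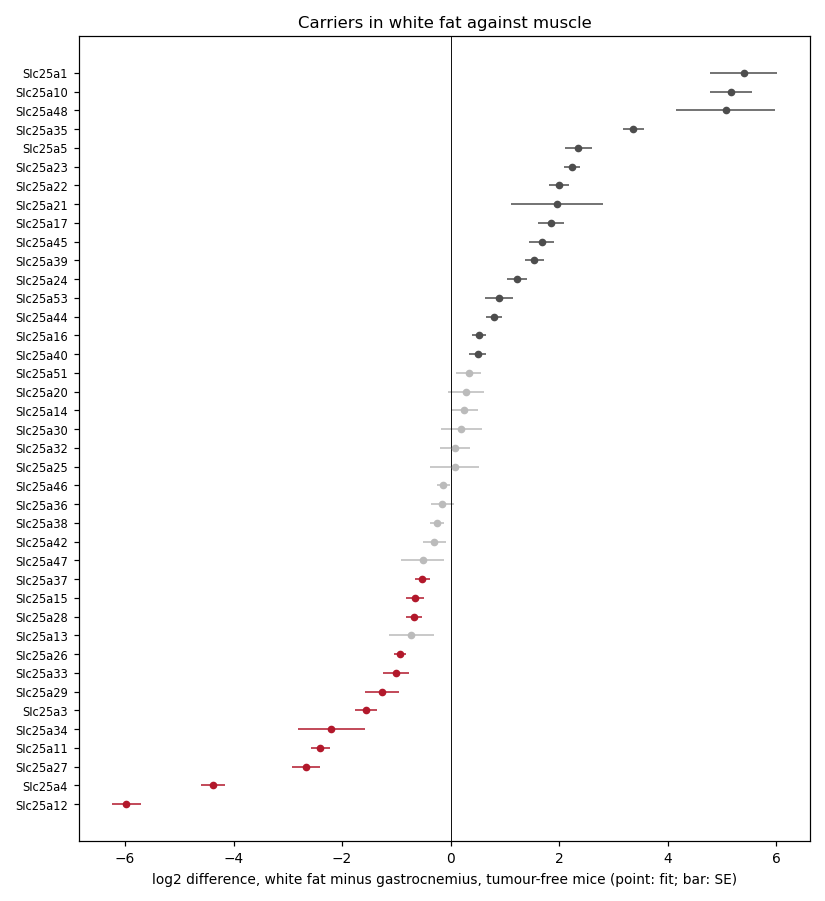
Log2 difference between white fat and gastrocnemius in tumour-free mice for 40 of the 41 members tested, white fat minus muscle on the x axis, with points for the joint edgeR fit with TMM factors and bars for 1 SE. Dark points were called higher in white fat, red points lower, and light grey points were not called; on library totals the median over all genes lies 0.96 further to the right, and 5 red points cross 0.

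Genes were set side by side within a tissue only per kilobase of annotated exon (GENCODE M21), for the kit that reads along the transcript. For these values CPM was scaled by TMM over white fat and muscle together, so they do not follow from the levels given within each tissue. Lengths join the exons of all annotated transcripts of a gene, 5550 bases for Slc25a3, and other lengths could change the order of genes. In NTB white fat the mean level of Slc25a1 on that joint scale was 352 (252 to 409) CPM per kilobase, with the lowest and highest library in parentheses, clear of Slc25a4 at 104 (91.5 to 111), Slc25a5 at 98.2 (75.2 to 107), Slc25a3 at 66.99 (61.2 to 71.9), Slc25a39 at 64.99 (57.2 to 69.99) and Slc25a10 at 61.6 (40.9 to 72.8). Ranges overlap between Slc25a4 and Slc25a5, and among Slc25a3, Slc25a39 and Slc25a10. In NTB muscle Slc25a4 led at 2178 (1810 to 3206) CPM per kilobase on the same scale, above the overlapping pair Slc25a11 at 207 (192 to 218) and Slc25a3 at 197 (148 to 296), and then Slc25a12 at 85.5 (48.7 to 105). Slc25a39, a glutathione carrier, the mitochondrial NAD+ carrier Slc25a51 and Slc25a5 followed with overlapping ranges, at 22.3 (19.8 to 25.6), 20.1 (18.3 to 21.7) and 19.2 (13.2 to 29.3) CPM per kilobase. Slc25a5 shares 8.33% of its exonic windows of 100 bases with other genes, so its reads may be split by the counting.

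Brown fat was sequenced with QuantSeq, which gives tags from the tail end of a transcript, so its CPM counts tags and is not tested against the other tissues. The highest mean tag levels in NTB (± SD, n = 6) were 879.8 ± 156 CPM for Slc25a51, 849 ± 100.4 CPM for Slc25a4, 569 ± 79.01 CPM for Slc25a3, 473 ± 51.2 CPM for the carnitine-acylcarnitine carrier Slc25a20 and 451 ± 42.1 CPM for Slc25a11. Slc25a51 and Slc25a4 do not differ beyond their spread, nor do Slc25a20 and Slc25a11. Slc25a12 ranged over 8.01 to 12.4 CPM in NTB brown fat. All members together summed to 4850 to 6017 CPM in NTB brown fat, 3926 to 4614 CPM in NTB white fat and 5103 to 7846 CPM in NTB muscle.

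**Figure D2:**
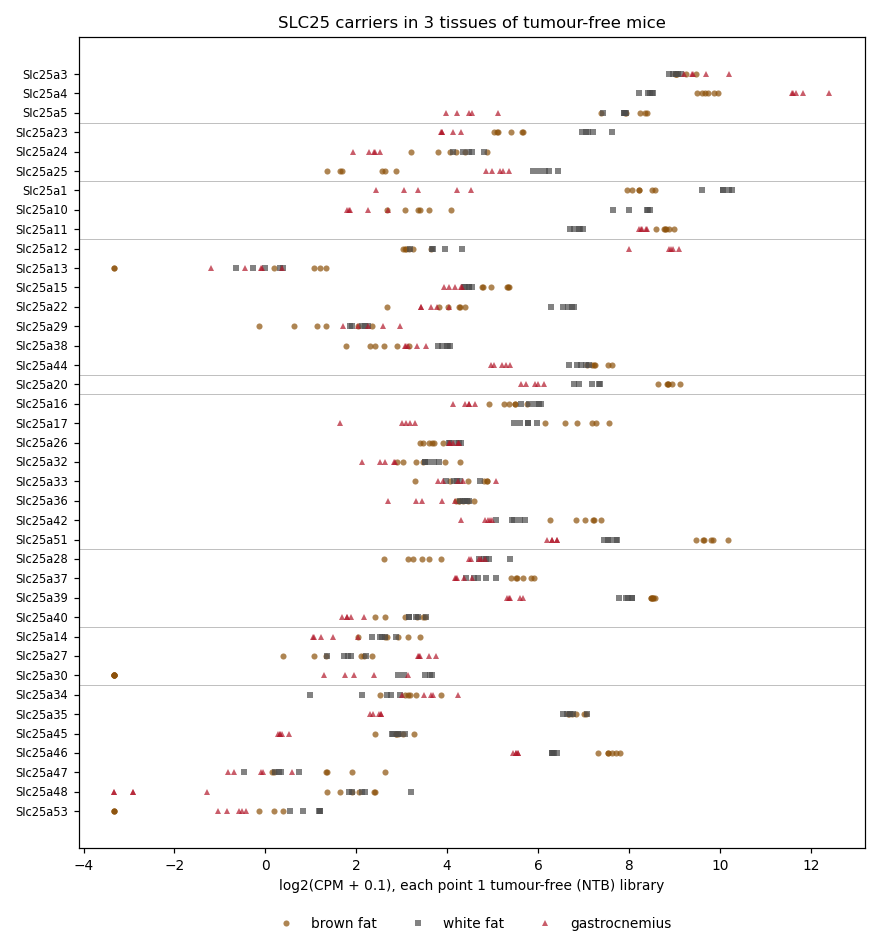
Level of 39 carriers in NTB libraries as log2(CPM + 0.1), each point 1 library of brown fat, white fat or gastrocnemius, with members grouped by substrate; the 7 members that pass the filter in no tissue are left out. CPM was scaled within each tissue and brown fat used another kit, so tissues are not on 1 scale; white fat and muscle lie far apart for Slc25a1, Slc25a10, Slc25a48, Slc25a12 and Slc25a4.

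In brown fat, the carriers called between the antibodies were higher with 3P10, and the clearest was the phosphate carrier. In 3P10 against IgG1, 4 of 30 members were called, all higher, where 11.6% of 8711 genes were called and 6.05% called higher. Slc25a3, which brings in the phosphate that ATP synthase needs, stood at 535, 423, 445, 591 and 499.8 CPM in IgG1, and at 604, 780.2 and 1018 CPM (lowest, median and highest) in 3P10. Its groups do not overlap, the 1 member of 30 of which this was so (6.29% of all genes), and the difference was 0.68 (SE 0.13, adjusted p = 0.00229). The call held with each of the 17 libraries left out in turn and in 8 of 8 other settings. Slc25a42, which imports coenzyme A, stood at 80.8, 108, 106, 82.1 and 54.6 CPM in IgG1 and at 86.8, 167 and 194 CPM (lowest, median and highest) in 3P10. Its groups overlap at the low end of 3P10, with a difference of 0.80 (SE 0.21, adjusted p = 0.0155) and an adjusted p of 0.0544 without IgG1 replicate 5. The citrate carrier Slc25a1 ranged over 248 to 332 CPM in IgG1 and 327 to 485 CPM in 3P10, a difference of 0.45 (SE 0.12, adjusted p = 0.0180), with an adjusted p of 0.0573 without the same library. Slc25a35 ranged over 89.6 to 145 CPM in IgG1 and 128 to 197 CPM in 3P10, a difference of 0.40 (SE 0.13, adjusted p = 0.0474), called in 7 of 17 fits with 1 library left out (adjusted p up to 0.135).

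In 3P10 against NTB, 5 of 30 members were called, again all higher, where 5.76% of all genes were called and 3.04% called higher. Slc25a23 stood at 32.8, 38.2 and 50.9 CPM (lowest, median and highest) in NTB and at 53.2, 59.5 and 61.4 CPM in 3P10. The groups do not overlap, as for 2 of 30 members and 3% of all genes, and the difference of 0.54 (SE 0.12, adjusted p = 0.0140) was called without each library in turn. Slc25a39, needed for the import of glutathione, lay in a narrow band of 357 to 380.5 CPM in NTB, below the 414 to 523 CPM of 3P10, a difference of 0.32 (SE 0.08, adjusted p = 0.0308). Slc25a3 differed by 0.49 (SE 0.13, adjusted p = 0.0269), Slc25a35 by 0.44 (SE 0.12, adjusted p = 0.0383) and the NAD+ carrier Slc25a51 by 0.58 (SE 0.17, adjusted p = 0.0465), each with some overlap between the groups. With 1 library left out, the calls were held in 11 of 17 fits for Slc25a39 (adjusted p up to 0.0819), 11 for Slc25a3 (0.0723), 10 for Slc25a35 (0.0885) and 6 for Slc25a51 (0.114).

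IgG1 against NTB in brown fat gave 2 calls among 30 members, both higher, where 2.97% of all genes were called and 1.86% called higher. Slc25a23 stood at 59.5, 52.5, 55.2, 60.7 and 59.8 CPM in IgG1, above each NTB library (the groups do not overlap for 2 of 30 members and 2.57% of all genes), a difference of 0.51 (SE 0.13, adjusted p = 0.0311). Slc25a11 stood at 513, 503, 581, 634 and 580.3 CPM in IgG1 and 386 to 512 CPM in NTB, a difference of 0.32 (SE 0.09, adjusted p = 0.0448). With 1 library left out, Slc25a23 was called in 10 of 17 fits (adjusted p up to 0.101) and Slc25a11 in 5 (0.130). Slc25a42 gave -0.63 (SE 0.21, adjusted p = 0.110) and Slc25a37, an iron carrier known from red cell precursors, gave -0.43 (SE 0.12, adjusted p = 0.0608); on library totals the calls were Slc25a23 higher and Slc25a37 lower. Slc25a4 ranged over 722 to 999 CPM in the 17 libraries and gave -0.04 (SE 0.09), 0.08 (SE 0.09) and 0.04 (SE 0.09) for IgG1 less NTB, 3P10 less IgG1 and 3P10 less NTB, in that order. The acylcarnitine carrier Slc25a20 gave 0.28 (SE 0.09, adjusted p = 0.0533) in 3P10 against NTB, and Slc25a44 gave 0.31 (SE 0.13, adjusted p = 0.171). These comparisons share libraries pairwise.

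Skeletal muscle RNA varied among the brown fat libraries, with 12 muscle markers summing to 813 to 2974 CPM in NTB, 170.5 to 2234 CPM in IgG1 and, among 3P10 libraries, 2.46 to 2344 CPM. With a muscle marker score as a term, 4 members and 12% of all genes were called in 3P10 against IgG1, the members being Slc25a3 at 0.70 (SE 0.13, adjusted p = 0.00115), Slc25a42 at 0.81 (SE 0.21, adjusted p = 0.0144), Slc25a1 at 0.46 (SE 0.12, adjusted p = 0.0168) and the ATP-Mg/phosphate carrier Slc25a24 at -0.74 (SE 0.24, adjusted p = 0.0474). In 3P10 against NTB, 2 members and 4.73% of all genes were called, Slc25a3 at 0.57 (SE 0.13, adjusted p = 0.0167) and Slc25a23 at 0.54 (SE 0.13, adjusted p = 0.0234). In such bulk samples, fewer cells of a type and less RNA per cell cannot be told apart.

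**Figure D3:**
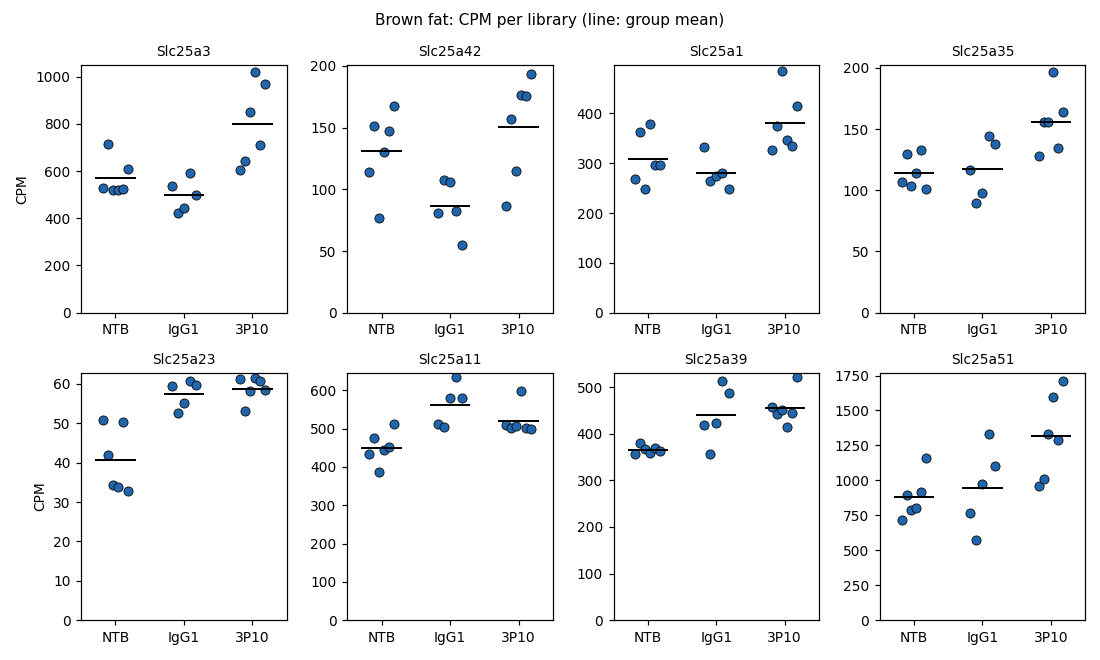
CPM of 8 members in each brown fat library, by group (6 NTB, 5 IgG1, 6 3P10), with each point 1 library and the line the group mean. All 3P10 points of Slc25a3 lie above all IgG1 points, and all IgG1 and 3P10 points of Slc25a23 lie above all NTB points.

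Relatives and partners of the carriers in brown fat moved in both directions. Ucp1, an SLC25 protein under another symbol, fell by 0.41 (adjusted p = 0.0359) in IgG1 against NTB and rose by 0.73 (adjusted p = 2.57e-04) in 3P10 against IgG1. In that second comparison the family member Mtch2 of the outer membrane rose by 0.47 (adjusted p = 0.00113), Mtch1 fell (-0.27, adjusted p = 0.0326), and Mpc2, a subunit of the pyruvate carrier, rose by 0.49 (adjusted p = 0.00331). Of 4 malate-aspartate shuttle enzymes, 2 rose in IgG1 against NTB, Got1 by 0.72 (adjusted p = 0.0317) and Mdh1 by 0.51 (adjusted p = 0.0184), and 0 fell. In 3P10 against IgG1 0 of the 4 rose and 1 fell, Mdh2 (-0.33, adjusted p = 0.00999). Of 3 carnitine shuttle enzymes tested, 1 rose in 3P10 against NTB, Cpt2 by 0.38 (adjusted p = 0.0349). Of 3 outer membrane channels and 4 calcium uniporter genes, 0 were called by edgeR in these comparisons, and Vdac2 and Smdt1 had an unadjusted p under 0.05 in some.

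In white fat, the members called in IgG1 against NTB were higher in IgG1, and those called in 3P10 against IgG1 were lower in 3P10. The first comparison called 5 of 40 members, where 8.64% of 14402 genes were called and 4.09% called higher. The second called 4 of 40, where 7.42% of genes were called and 3.46% called lower. 3P10 against NTB called 0 members and 0% of all genes by edgeR, and 0 members and 0.132% of genes by DESeq2, with 1 member, Slc25a47, and 3.76% of genes at an unadjusted p under 0.05. The median log2 difference over members was 0.29 in the first and -0.27 in the second comparison, beside -0.01 and 0.01 over all genes, and both comparisons share the IgG1 libraries.

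Slc25a28, also called mitoferrin 2, supplies iron for heme and iron-sulfur clusters. It stood at 44.1, 41.6, 45.5, 43.5 and 56.0 CPM in IgG1, at 30.1, 27.9, 25.8, 28.7 and 41.4 CPM in NTB, and at 28.2, 31.5, 31.6, 32.2 and 39.9 CPM in 3P10. Every IgG1 library lay above every other white fat library, although the highest NTB library came within 1 CPM of the lowest IgG1 one (the groups do not overlap for 4 of 40 members and 8.85% of all genes between IgG1 and NTB, and for 1 of 40 and 5.65% between 3P10 and IgG1). IgG1 against NTB gave 0.59 (SE 0.13, adjusted p = 0.0202), while 3P10 against IgG1 gave -0.50 (SE 0.13, adjusted p = 0.0385). The glutamate carrier Slc25a22 stood at 128, 162, 135, 151 and 154 CPM in IgG1, above the 78.4 to 111 CPM of NTB and largely above the 77.9 to 132 CPM of 3P10, with differences of 0.57 (SE 0.13, adjusted p = 0.0227) and -0.48 (SE 0.13, adjusted p = 0.0442). With 1 library left out, Slc25a28 was called in 13 and 8 of 15 fits in these comparisons (adjusted p up to 0.0531 and 0.0886), and Slc25a22 in 11 and 4 (up to 0.0597 and 0.108).

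Slc25a33, Slc25a42 and Slc25a38 were also called in IgG1 against NTB, and Slc25a33 and Slc25a47 in 3P10 against IgG1. Slc25a33 stood at 27, 42.9, 22.99, 61.4 and 26.5 CPM in IgG1 replicates 1 to 5, at 15.5 to 26.3 CPM in NTB and at 13.7 to 23.8 CPM in 3P10. Its differences were 0.89 (SE 0.25, adjusted p = 0.0389) and -0.91 (SE 0.25, adjusted p = 0.0396), with IgG1 replicates 1 and 5 just above the NTB range and replicate 3 within it. The coenzyme A carrier Slc25a42 stood at 45.6, 109.5, 62.8, 94.1 and 89.1 CPM in IgG1 and 33.4 to 52.6 CPM in NTB, a difference of 0.86 (SE 0.21, adjusted p = 0.0238). Slc25a38, which imports glycine for heme synthesis, stood at 20.6, 23.3, 18.1, 23 and 18.3 CPM in IgG1, each above the 13.8 to 16.7 CPM of NTB, a difference of 0.42 (SE 0.12, adjusted p = 0.0457). Slc25a47, known mainly from liver, was called in 3P10 against IgG1 at -1.42 (SE 0.39, adjusted p = 0.0432) and a low level, 0.24 to 1.07 CPM in 3P10 and 1.16, 1.85, 0.875, 1.95 and 1.85 CPM in IgG1.

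With IgG1 replicates 2 and 4 left out, 0 members were called by edgeR in either comparison, and 0.636% and 0.103% of all genes were. Slc25a28 then gave 0.66 (SE 0.16, adjusted p = 0.0630) and -0.57 (SE 0.16, adjusted p = 0.119), no smaller in size than with all libraries, and Slc25a22 gave 0.50 (SE 0.15, adjusted p = 0.122) and -0.41 (SE 0.15, adjusted p = 0.217). Slc25a33 gave 0.39 (SE 0.18, adjusted p = 0.275) against NTB, Slc25a42 0.58 (SE 0.20, adjusted p = 0.166) and Slc25a38 0.30 (SE 0.14, adjusted p = 0.255). In 3P10 against IgG1, Slc25a33 gave -0.41 (SE 0.18, adjusted p = 0.287) and Slc25a47 -1.16 (SE 0.46, adjusted p = 0.237). With library number 14 or higher as a term, 3 members and 6.69% of all genes were called against NTB, Slc25a28 at 0.62 (SE 0.13, adjusted p = 0.0159), Slc25a22 at 0.52 (SE 0.12, adjusted p = 0.0269) and Slc25a42 at 0.83 (SE 0.22, adjusted p = 0.0418). Leaving out NTB replicate 1 alone ended all 5 calls against NTB. Without IgG1 replicate 2, 4 or 5 in turn, 1 call was left, whereas without IgG1 replicate 3 or 1 there were 13 and 11. In 3P10 against IgG1, 0 members were called without IgG1 replicate 2, 4 or 5, or 3P10 replicate 1, 3 or 4, and 13 without IgG1 replicate 3.

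Across the family, replicates 2 and 4 were the highest pair of the 15 white fat libraries for 16 of 40 members, and for 14.6% of all genes tested. They were the lowest pair for 2 members, Slc25a10 and Slc25a25, and for 14.7% of all genes. Slc25a20, which brings acylcarnitines in for oxidation, stood at 127, 503, 111.8, 612 and 245 CPM in IgG1, with NTB at 111 to 165 CPM and 3P10 at 72.6 to 185 CPM. Its difference from NTB was 1.19 (SE 0.42, adjusted p = 0.0827), and 0.20 (SE 0.32, adjusted p = 0.789) without both libraries. Slc25a34 reached 51.8 and 21.8 CPM in them and 1.89 to 11.4 CPM in the other 13. Slc25a51 reached 494 and 620.4 CPM and ranged over 163 to 306 CPM elsewhere, whereas Slc25a10 stood at 103 and 103 CPM, below the 116 to 353 CPM of the rest. In these 2 libraries the summed brown or beige fat markers were 4955 and 5107 CPM, and 136 to 1406 CPM in the other IgG1 libraries, and replicate 4 also held 283 CPM of the epithelial keratin Krt14. Summed fibroblast markers were 599.5 to 1723 CPM in IgG1, 1498 to 3032 CPM in 3P10 and 2559 to 3973 CPM in NTB. Of 5 fibroblast markers, 3 were called lower in IgG1 against NTB and 3 higher in 3P10 against IgG1. Summed macrophage markers were 128 to 288 CPM in IgG1, 235 to 530.3 CPM in 3P10 and 206 to 382 CPM in NTB, and of 5 such markers 2 were called higher in 3P10 against IgG1. The part of these cell types in the carrier differences was not tested.

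**Figure D4:**
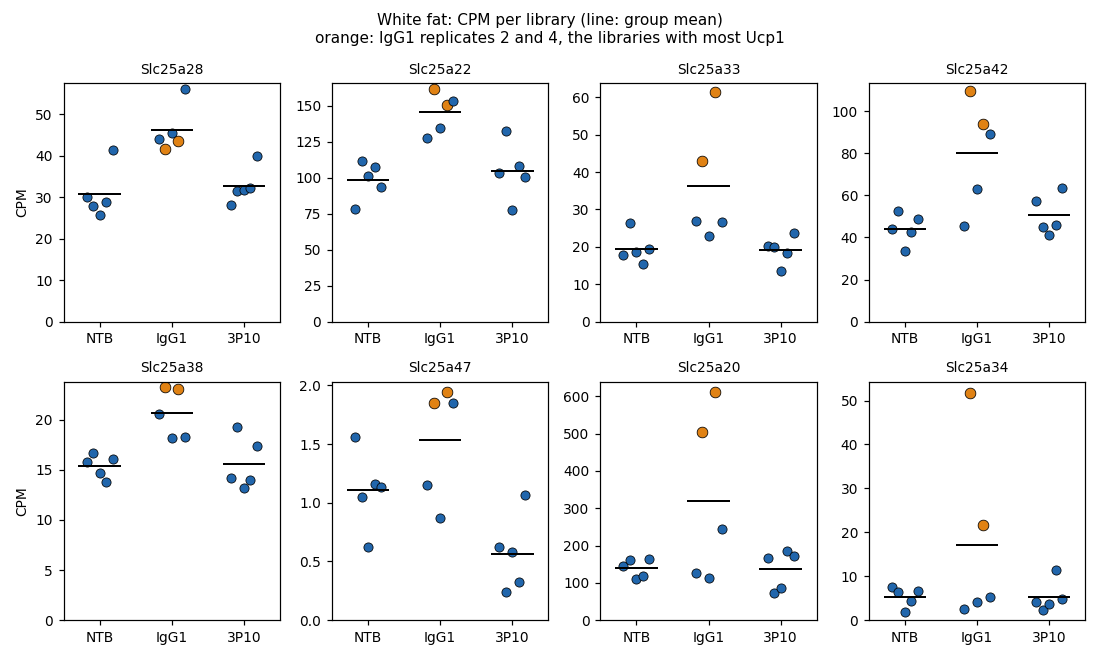
CPM of 8 members in each white fat library, by group (5 NTB, 5 IgG1, 5 3P10), with each point 1 library and the line the group mean. Orange points are IgG1 replicates 2 and 4, the libraries with most Ucp1. They are the top 2 for Slc25a20, Slc25a33, Slc25a34, Slc25a38 and Slc25a42 and are not the highest for Slc25a28.

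Partners in white fat gave few calls. The carnitine acetyltransferase Crat, 1 of 3 carnitine shuttle enzymes tested, rose by 0.73 (adjusted p = 0.0315) in IgG1 against NTB and fell by 0.83 (adjusted p = 0.0253) in 3P10 against IgG1. Mdh1, 1 of 4 malate-aspartate shuttle enzymes, rose by 0.87 (adjusted p = 0.0462) in IgG1 against NTB. Of the 2 pyruvate carrier subunits and 3 outer membrane channels, 0 were called in white fat by edgeR, and Mpc1 and Vdac2 had an unadjusted p under 0.05 in 1 or more comparisons.

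In muscle, the iron carrier Slc25a28 was the clearest response. It stood at 32.6, 58.1, 45.6, 56.5 and 40.4 CPM in IgG1 and at 22.2, 22.8, 28.6, 26.8 and 25.98 CPM in NTB. Every IgG1 library lay above every NTB library, as for 2 of 39 members and 6.38% of all genes, and the difference was 0.89 (SE 0.16, adjusted p = 0.00463). It was called with each of the 15 libraries left out in turn and in 9 of 9 other settings. In 3P10 the gene stood at 33.7, 31.4, 28.2, 26.6 and 24.1 CPM, and 3P10 against IgG1 gave -0.70 (SE 0.16, adjusted p = 0.0788), or -0.61 (SE 0.12, adjusted p = 0.0103) with library number 14 or higher as a term. In brown fat the same gene gave 0.63 (SE 0.24, adjusted p = 0.161) in IgG1 against NTB, at 12.7 to 19.1 CPM and 6.01 to 14.5 CPM. Its paralog Slc25a37 gave -0.12 (SE 0.14, adjusted p = 0.676) in muscle and -0.09 (SE 0.14, adjusted p = 0.700) in white fat.

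IgG1 against NTB called 3 of 39 members in muscle, where 5.6% of 13283 genes were called. Of these 2 were higher (2.68% of all genes) and 1 lower (2.92% of all genes). The ornithine carrier Slc25a15, a link to the urea cycle in liver, stood at 15.8, 10.9, 13.4, 12.2 and 10.6 CPM in IgG1 and 15.1 to 19.9 CPM in NTB, a difference of -0.50 (SE 0.13, adjusted p = 0.0333). Slc25a27 stood at 17.2, 16.3, 12.9, 20.1 and 13.4 CPM in IgG1 and 10.2 to 13.4 CPM in NTB, a difference of 0.50 (SE 0.14, adjusted p = 0.04997) at the very edge of the threshold. With 1 library left out, the calls were held in 7 of 15 fits for Slc25a15 (adjusted p up to 0.0945) and 3 for Slc25a27 (0.143). 3P10 against IgG1 called 0 members and 0.211% of all genes by edgeR, and 2 members and 2.18% of genes by DESeq2, Slc25a28 and Slc25a15, with 6 members and 10.8% of genes at an unadjusted p under 0.05. 3P10 against NTB called 0 members by edgeR and by DESeq2 (0% and 0.113% of all genes), with 0 members and 4.24% of genes at an unadjusted p under 0.05.

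Slc25a25, a calcium-regulated ATP-Mg/phosphate carrier, varied widely. It stood at 49.2, 51.7, 322, 150.1 and 70.4 CPM in IgG1, at 37.4, 28.9, 31.5, 35.9 and 41.1 CPM in NTB, and at 16.99, 13.2, 101, 54.9 and 36.2 CPM in 3P10. All IgG1 libraries lay above all NTB libraries, yet the difference of 1.88 (SE 0.56, adjusted p = 0.0615) missed the threshold. It was called by DESeq2, at 1.88 (SE 0.53, adjusted p = 0.00744), and with library number 14 or higher as a term, at 1.996 (SE 0.52, adjusted p = 0.0137). In white fat it gave -0.63 (SE 0.28, adjusted p = 0.150), at 26.7 to 70.8 CPM in IgG1 and 59.2 to 86.2 CPM in NTB.

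Libraries numbered 14 or higher stood apart in muscle, for carriers in shares near or below those of all genes. Slc25a12 stood at 258, 268, 245 and 254 CPM in the 4 such libraries, from all 3 groups, and at 324 to 550.5 CPM in the other 11. These libraries lay below all others for 5 of 39 members, Slc25a12, Slc25a13, Slc25a32, Slc25a36 and Slc25a42, and for 11.9% of all genes. They lay above all others for 3 members, Slc25a3, Slc25a5 and Slc25a14, and for 13.2% of all genes. With library number as a term, 10 of 39 members and 18.5% of all genes were called in IgG1 against NTB, with 3 members higher and 7 lower, and 3 members and 5.03% of all genes in 3P10 against IgG1. Among the lower ones were Slc25a12 at -0.35 (SE 0.11, adjusted p = 0.0328), Slc25a13 at -0.78 (SE 0.25, adjusted p = 0.0393) and Slc25a11 at -0.34 (SE 0.11, adjusted p = 0.0394). Without those 4 libraries Slc25a28 was called at 0.70 (SE 0.14, adjusted p = 0.0121) and Slc25a12 at -0.49 (SE 0.11, adjusted p = 0.0176), with 6.52% of all genes called. Slc25a4 stood at 2259 to 4291 CPM in IgG1 and 3073 to 5441 CPM in NTB, with -0.35 (SE 0.21, adjusted p = 0.381). Summed fibroblast markers were 428 to 679.5 CPM in IgG1 and 814 to 1014 CPM in NTB, and their part in these differences was not tested. Of the partner lists, 0 genes were called by edgeR in the muscle comparisons, and Got1, Mdh1, Mdh2, Me1, Micu2 and Ucp1 had an unadjusted p under 0.05 in 1 or more of them.

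**Figure D5:**
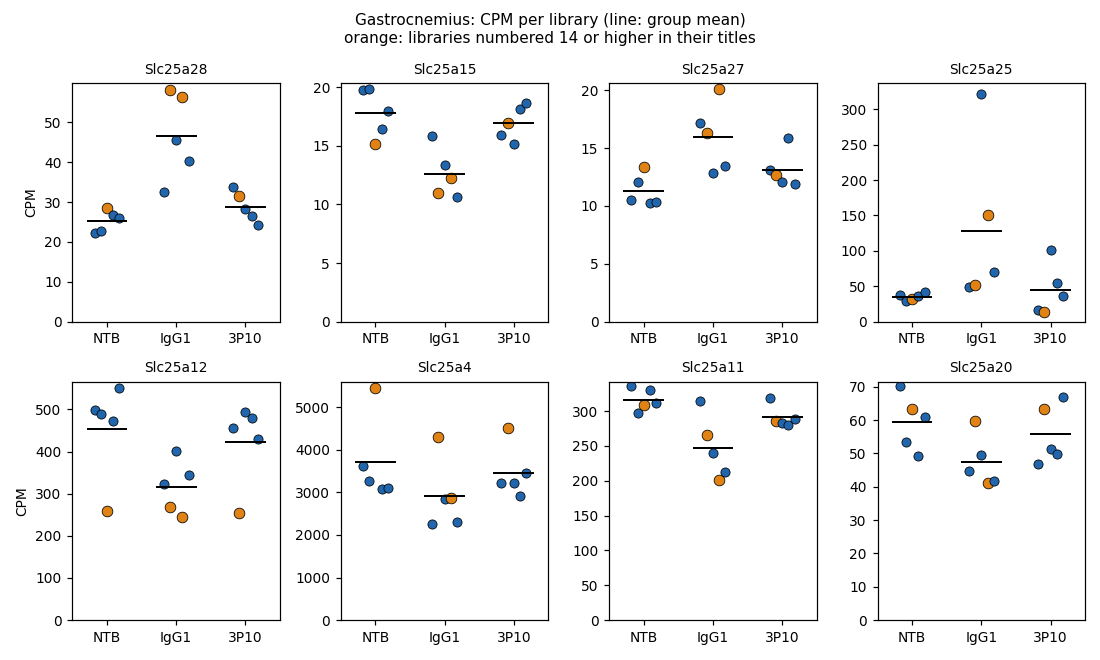
CPM of 8 members in each gastrocnemius library, by group (5 NTB, 5 IgG1, 5 3P10), with each point 1 library and the line the group mean. Orange points are libraries numbered 14 or higher in their titles; they are the lowest 4 of 15 for Slc25a12, while all IgG1 points of Slc25a28 lie above all NTB points.

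Whether IgG1 against NTB differed by tissue was asked of white fat and muscle with an interaction term, and 2 of 41 members were called, where 1.11% of 14898 genes were. Slc25a26, which imports S-adenosylmethionine, stood at 19.98 to 25.6 CPM in white fat IgG1 libraries and 16.3 to 19.7 CPM in NTB, and at 13.1 to 18.7 CPM and 16.5 to 19.2 CPM in muscle. Its effect was 0.34 in white fat and -0.25 in muscle, and the interaction 0.63 (SE 0.15, adjusted p = 0.0360). For Slc25a11 the effects were 0.54 and -0.36, and the interaction 0.93 (SE 0.23, adjusted p = 0.0438). Neither was called within a tissue by edgeR's main fit, with TMM factors and all libraries. With RLE in place of TMM factors, or with a filter of 1 CPM in 5 libraries, edgeR called Slc25a26 in white fat. By DESeq2 Slc25a26 was called in white fat, at 0.37 (SE 0.12, adjusted p = 0.0140), and Slc25a11 in both, at 0.57 (SE 0.20, adjusted p = 0.0346) and -0.36 (SE 0.12, adjusted p = 0.0252). Each white fat library shares its group, replicate and library number with a muscle library, and the labels do not say whether such a pair came from 1 mouse. With the shared number as a block, the interactions were 0.63 (SE 0.16, adjusted p = 0.114) for Slc25a26 and 0.88 (SE 0.26, adjusted p = 0.154) for Slc25a11, and 0 members and 0.141% of all genes were called. Without white fat IgG1 replicates 2 and 4 the interactions were 0.63 (SE 0.17, adjusted p = 0.142) and 0.58 (SE 0.20, adjusted p = 0.287). The interaction of 3P10 against IgG1 was called for 0 members and 0.208% of all genes by edgeR and for 3 members and 3.27% of genes by DESeq2, Slc25a11, Slc25a20 and Slc25a25, with 15 members and 15% of genes at an unadjusted p under 0.05. That of 3P10 against NTB was called for 0 members by edgeR and by DESeq2 (0% and 0.0134% of all genes), with 0 members and 2.26% of genes at an unadjusted p under 0.05.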

How the data were processed

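RNA of 17 brown fat, 15 white fat and 15 gastrocnemius libraries was analysed. The 2 deposited tables hold counts per gene, as whole numbers, per the labels. Brown fat used QuantSeq with unique molecular identifiers, and white fat and muscle a directional kit, per the labels' protocols. The submitters' processing notes name Trim Galore, STAR 2.6.0a, featureCounts 1.6.2, edgeR 3.22.3 and mm9. Whether identifiers were collapsed, which annotation was used and how strand was set are not given in the sources used here; tag and full-length kits weight genes differently, so brown fat was not tested against the others.

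Each tissue was fitted with R 4.3.3 and edgeR 4.0.16 (glmQLFit, glmQLFTest, 2-sided; TMM; filterByExpr with minimum count 10 and total 15; 3 groups per fit), and white fat and muscle jointly, with Benjamini-Hochberg adjustment. The fits were tested on simulated data with 200 genes changed. For IgG1 against NTB, 1.5-fold changes were recovered in 31.3% of cases in brown fat, 11.9% in white fat, 8.96% in muscle and 4.48% in the interaction. For 2-fold changes these shares were 85.1, 49.3, 64.2 and 38.8%. Of the calls, 2.97 to 6.61% were false. Most changes of 1.5-fold would thus go uncalled. Alternatives were DESeq2 1.42.0, RLE factors, other low-count filters (none, or 1 CPM in 5 libraries), the compared groups alone, a replicate block, library number or muscle markers as a term, libraries left out and, chosen after seeing the data, library totals and a block by library number. The 2 white fat libraries left out together were picked by their own Ucp1 level, and the labels do not give the split at library number 14. Exon lengths of GENCODE M21 matched 47 of 47 members. Members, lists and naming rule were chosen with earlier results of these data known. The rule names members called within a tissue or in an interaction, the 8 largest called tissue differences each way above 1 CPM, the 5 of highest level per tissue, and well-known carriers. Slc25a14, Slc25a24, Slc25a32 and Slc25a36 fall outside it and were named after their values were seen. Some genes are not reported here, in the text or the figures.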

Additional observations from a re-analysis of the deposited data

Results flagged for a closer look

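Members called in a comparison within a tissue were searched there, in groups of 5 or 6 libraries, for a library set apart. In white fat and muscle, members called in an interaction were searched as well. Of 63 groups 5 had one, where chance flags about 1 in 20 groups. Other named members were not searched. In brown fat of 3P10 mice, Slc25a11 stood at 598.8 CPM in replicate 4, against a next highest value of 508.8 CPM. In white fat, Slc25a28 stood at 41.38 CPM in NTB replicate 5 (next 30.06 CPM) and at 56.0 CPM in IgG1 replicate 5 (next 45.54 CPM). In muscle of 3P10 mice, Slc25a11 stood at 319.4 CPM in replicate 1 (next 289.2 CPM) and Slc25a26 at 17.8 CPM in replicate 2 (next 16.79 CPM). The IgG1 against NTB difference itself differed between white fat and muscle for Slc25a11, by 0.93 on the log2 scale (adjusted p = 0.0438), and for Slc25a26, by 0.63 (adjusted p = 0.0360), by the interaction test of edgeR.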

How the results depend on the processing

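Counts below are members called. DESeq2 gave 4 in brown fat IgG1 against NTB, 11 each in white fat IgG1 against NTB and 3P10 against IgG1, 6 and 2 in those muscle comparisons, and 6 and 3 in their interactions, where it called 6.25, 17.7, 15.9, 9.99, 2.18, 3.81 and 3.27% of all genes with an adjusted p. Library totals gave 3 in brown fat 3P10 against NTB, 1 in white fat 3P10 against IgG1, 1 in muscle IgG1 against NTB and 0 in the IgG1 interaction, and between tissues they reversed Slc25a37 (0.439), Slc25a28 (0.297), Slc25a33 (0.003), Slc25a26 (0.025) and Slc25a15 (0.284). No filter gave 1 in white fat 3P10 against IgG1, 1 in muscle IgG1 against NTB and 0 in the IgG1 interaction, and 1 CPM in 5 libraries gave 1 in brown fat IgG1 against NTB. The compared groups alone gave 0 in brown fat IgG1 against NTB, 0 in white fat 3P10 against IgG1 and 1 in muscle IgG1 against NTB. Muscle markers as a term gave 1 and 2 in brown fat IgG1 and 3P10 against NTB. Library number as a term gave 3 in white fat IgG1 against NTB, and 10 and 3 in muscle IgG1 against NTB and 3P10 against IgG1. Without libraries numbered 14 or higher, and likewise without the 2 white fat libraries richest in Ucp1, edgeR gave 0 in both white fat comparisons and the IgG1 interaction, and uncalled values reversed: Slc25a34 in white fat IgG1 against NTB (-0.66 and -0.439), 3P10 against IgG1 (0.588 and 0.394) and its interaction (0.69 and 0.372), and Slc25a51 in white fat 3P10 against IgG1 (0.048 in each). These fits hold fewer samples; the cause of the other changes was not tested. Same-numbered replicates of different groups correlated at a median of -0.03 (brown fat), 0.104 (white fat) and 0.151 (muscle). Other numbers gave 0.01, -0.012 and 0.09. Of the same-numbered pairs 0 of 16, 8 of 15 and 9 of 15 passed 0.1. White fat and muscle libraries of the same group and number gave a median of 0.087, where other pairs within a group gave -0.021. The labels do not say what a shared number stands for, and these values do not settle it. The replicate block gave 0 in brown fat IgG1 against NTB, 1 in muscle IgG1 against NTB and 1 in the IgG1 interaction, and the replicate block by library number gave 0 there. With 1 library left out, counts ran from 0 to 4, 3 to 7 and 1 to 6 in brown fat (IgG1 against NTB, 3P10 against IgG1, 3P10 against NTB), 0 to 13, 0 to 13 and 0 to 0 in white fat, 1 to 6, 0 to 2 and 0 to 0 in muscle, 27 to 30 between tissues, and 0 to 6, 0 to 4 and 0 to 0 in the interactions. Single-gene values were followed for members with an unadjusted p under 0.05 in the main fit, and between tissues for members called. Over all settings, 4001 kept direction and side of the threshold, 264 lost and 129 gained a call, and 13 reversed. Values that stayed uncalled count as kept, and calls between tissues are pooled in. The 4001 therefore does not measure how firm the calls within a tissue or in the interactions are. Depth in brown fat limits what is seen of members at a few CPM.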
